A study of Mus musculus with 8 samples.

Results

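Mammalian mitochondria transcribe their circular genome (mtDNA) from both strands, heavy and light, into long RNAs that pair as double-stranded RNA unless the light-strand product is removed. POLRMT, the mitochondrial RNA polymerase, starts transcription with TFB2M, which opens the promoter, and TFAM, which bends and packages mtDNA, while the helicase TWNK (Twinkle) unwinds mtDNA for replication. ELAC2 cuts the 3′ ends of tRNAs out of the long transcripts. LRPPRC and SLIRP form a complex that keeps mitochondrial mRNAs stable. The nuclease PNPT1 (PNPase) and the helicase SUPV3L1 (SUV3) form the degradosome, which degrades mitochondrial RNA, and REXO2 clears the short oligonucleotides that remain. Erythroid precursors use mitochondria for heme synthesis and shed them as they mature.

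The 10 genes that encode these proteins were taken by name from the deposited gene counts, and all 10 were among the 17378 genes tested of 52636 gene identifiers. The counts came from RNA sequencing of S0 cells, live cells of the mouse fetal liver at stage E12.5 (embryonic day) that were negative for CD71, Ter119 and a panel of markers of other blood lineages. There were 4 wild-type (WT) libraries and 4 DKO libraries, the latter from embryos lacking both Vps13a and Vps13c, which encode lipid transfer proteins at contacts between organelles. All mice were on a C57BL/6J background and untreated. In DKO embryos, both deletions were constitutive and in the whole body. For Vps13a, FLP recombinase first removed the reporter and selection cassettes, and β-actin-Cre then removed an exon. Intercrosses of Vps13a+/-/Vps13c-/- mice gave the DKO embryos. Every embryo of that cross lacks Vps13c, so the WT embryos had other parents. Litter and mother therefore cannot be told apart from genotype. How many embryos went into a library is not given in the sources used here, so the p-values measure only the spread between these libraries. The comparison asks whether the machinery that makes and degrades mitochondrial RNA differed at the RNA level between WT and DKO S0 cells.

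Total counts per library were between 36981439 and 50886469. Vps13a had 1825 to 2109 normalized counts (counts scaled to the mean effective library size) in WT and 607 to 1039 in DKO, whereas Vps13c overlapped between the groups (504 to 664 in WT, 518 to 1088 in DKO) and did not check that deletion, since a count over a whole gene also takes reads outside the deleted part. The Y-linked gene Ddx3y was between 2911 and 3354 in the 4 WT libraries and at 2516 in DKO replicate 3, but at most 41.0 in the other DKO libraries, so embryo sex and genotype cannot be told apart outside that library. S0 cells are labelled erythroid precursors. The erythroid regulators Klf1 and Gata1 were expressed in all 8 libraries, and the summed level of 10 erythroid genes overlapped (1180 to 1343 counts per 1000000, CPM, in WT and 997 to 1492 in DKO). The 6 mesenchyme genes summed to 41.8 to 126 CPM in WT and 277 to 973 in DKO, with 5 of 6 called higher. Granulocyte genes summed to 2311 to 3009 and 121 to 1020 CPM, with 3 of 5 tested called lower and Ly6g at 0 in every library. Macrophage genes (110 to 168 and 31.2 to 99.8 CPM, 1 of 7 tested called lower) and endothelial genes (60.4 to 79.2 and 36.9 to 45.2 CPM, 1 of 6 called lower) were lower in sum without overlap. Hepatoblast genes overlapped in sum, at 15615 to 21213 and 4480 to 17668 CPM, as did megakaryocyte genes, and none of either list was called. Yet all 10 hepatoblast genes had a log2 fold change (DKO over WT) below 0, with a median of -0.81. In 4 of them every DKO library lay below every WT library, as in 14.6% of all genes. All 5 megakaryocyte genes were above 0, with a median of 0.44. DKO replicate 1 was the most mesenchymal and least granulocytic library, and its value was the lowest of the 4 DKO libraries for 8 of the 10 machinery genes. DKO replicate 3, the Y-positive one, had the lowest hepatoblast (4480 CPM) and macrophage (31.2 CPM) sums of the 8 libraries. In such bulk samples, fewer cells of a type and less RNA per cell cannot be told apart, and the part of these other cells in the values that follow was not tested.

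The promoters of Slirp, Polrmt and Lrpprc are shown because Slirp and Polrmt were the genes called and Lrpprc encodes the partner of Slirp. Each is a RefSeq window on GRCm38.p6, from 250 bases before to 50 after the start of the gene, read on the strand of the gene. Slirp lies on the forward strand (chr12:87443646-87443945), Polrmt on the reverse strand (chr10:79746532-79746831) and Lrpprc on the reverse strand (chr17:84790737-84791036). Capitals mark motif matches on either strand.
Slirp: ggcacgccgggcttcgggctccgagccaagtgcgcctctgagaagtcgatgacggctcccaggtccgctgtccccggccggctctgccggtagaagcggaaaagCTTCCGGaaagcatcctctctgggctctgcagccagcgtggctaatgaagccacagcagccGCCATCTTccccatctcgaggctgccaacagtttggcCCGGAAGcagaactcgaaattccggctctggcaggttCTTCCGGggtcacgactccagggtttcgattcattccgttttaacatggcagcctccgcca
Polrmt: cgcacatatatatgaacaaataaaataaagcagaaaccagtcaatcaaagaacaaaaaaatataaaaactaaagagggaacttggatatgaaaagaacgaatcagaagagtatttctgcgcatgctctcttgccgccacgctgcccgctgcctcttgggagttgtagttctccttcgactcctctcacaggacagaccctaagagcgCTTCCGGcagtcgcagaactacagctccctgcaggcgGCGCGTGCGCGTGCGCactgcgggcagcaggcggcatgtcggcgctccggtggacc
Lrpprc: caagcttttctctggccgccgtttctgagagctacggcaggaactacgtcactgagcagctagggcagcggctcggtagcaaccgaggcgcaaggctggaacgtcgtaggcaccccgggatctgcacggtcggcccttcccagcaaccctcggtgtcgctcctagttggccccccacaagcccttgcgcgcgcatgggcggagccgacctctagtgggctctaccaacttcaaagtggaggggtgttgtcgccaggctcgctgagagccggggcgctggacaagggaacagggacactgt
The searched motifs were GCGCA followed by any base and GCGC for NRF1, CCGGAAG for the ETS family to which GABPA belongs, CACGTG for MYC, AAGATGGC for YY1 and GAAA, any 2 bases and GAAA for interferon response elements. The Slirp window held 3 ETS matches and 1 YY1 match. In the Polrmt window, a pair of NRF1 matches sharing 4 bases lay beside the gene start, with 1 ETS match before them. The Lrpprc window held none of these letters. Among all 10 genes, 4 had an ETS match (Polrmt, Tfam, Slirp and, in one of its 2 windows, Twnk), against 8.86% of 32851 RefSeq promoters and 15.8% of those of tested genes. NRF1 letters were found for 2 genes (Polrmt and Rexo2), against 4.6% and 8.81% of those promoters. Rexo2 also had the MYC motif, which 7.15% of all promoters held, and Slirp was the only one of the 10 with the YY1 motif (2.75% of all). The letters searched for interferon response elements were found in none of the 10, Pnpt1 included, against 3.44% of all promoters. Other forms of the element were not searched. The Pnpt1 window held gaaacgaaa, with 1 base between the GAAA letters where the search required 2.

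Of the 10 genes, Slirp rose and Polrmt fell in DKO cells, and the other 8 did not pass the test (edgeR quasi-likelihood test, Benjamini-Hochberg adjusted p under 0.05). Over all genes tested, 10.7% were called higher and 10.8% lower, so 1 of 10 in each direction is close to the share over all genes. None of the 10 also passed a log2 fold change of 1 in either direction, the size used by the study, against 8.63% of all genes. In Slirp every DKO library lay above every WT library, as in 13.5% of all genes. In Polrmt, Tfb2m and Lrpprc every DKO library lay below every WT library, as in 14.6% of all genes. The median log2 fold change (DKO over WT) of the 10 was -0.13, beside 0.03 over all genes tested.

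**Figure D1:**
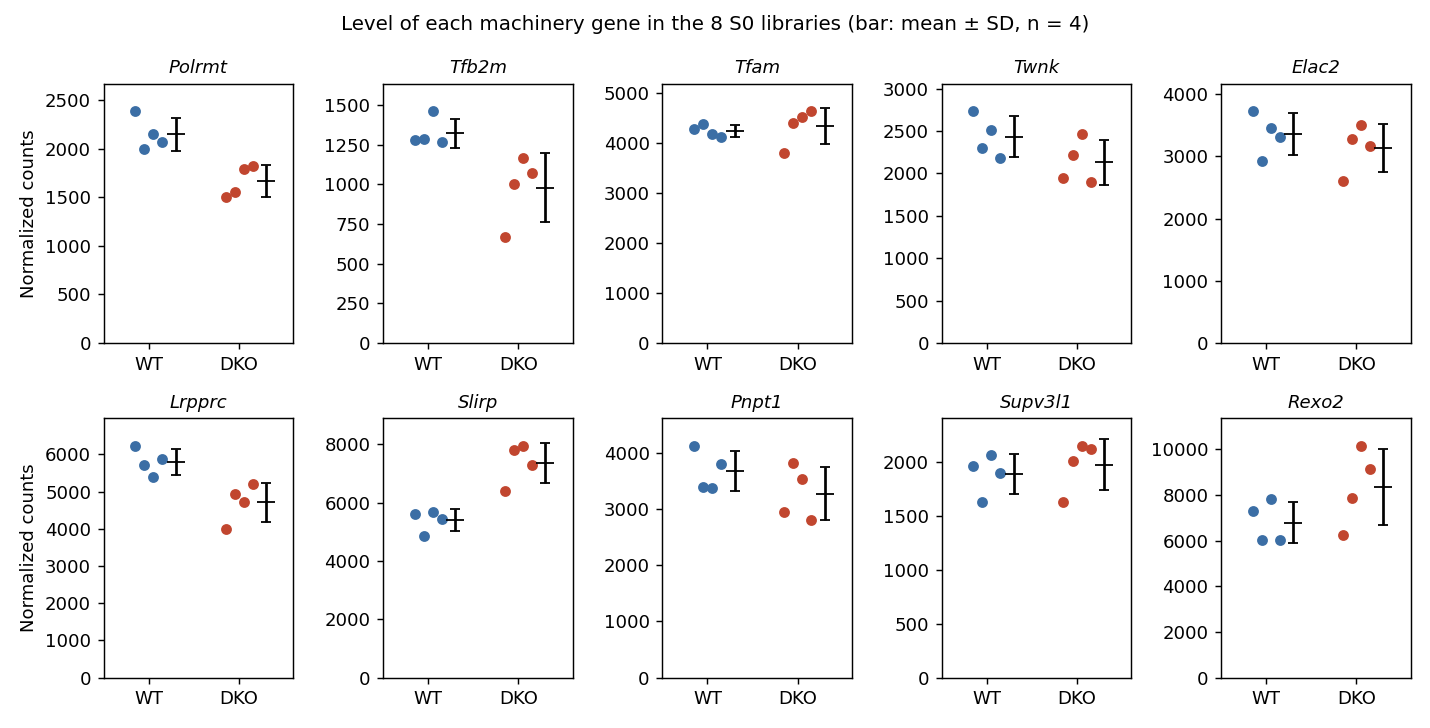
Normalized counts (y axis) of each of the 10 genes in the 4 WT and 4 DKO libraries (points), with mean and SD (black bars). Slirp is higher in every DKO library, Polrmt, Tfb2m and Lrpprc are lower in every DKO library, and the groups of the other 6 overlap.

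Transcription initiation came first among the roles. Polrmt had 2382, 1992, 2147 and 2063 normalized counts in WT replicates 1 to 4, and 1501, 1555, 1795 and 1817 in DKO replicates 1 to 4. The highest DKO library thus stayed below the lowest WT library. From 2146 ± 170 (SD, n = 4) to 1667 ± 162 (SD, n = 4), the log2 fold change was -0.36 (SE 0.102, 95% interval -0.59 to -0.13), with an edgeR adjusted p of 0.0329 and an exact two-sided permutation p of 0.0286, the smallest that 4 against 4 libraries can give. The call was lost when any WT replicate or DKO replicate 1 or 2 was left out, with edgeR adjusted p between 0.0525 and 0.101, under upper-quartile scaling (log2 fold change -0.26, adjusted p = 0.0905) and with DKO replicate 3 alone, the only Y-positive DKO library (log2 fold change -0.28, adjusted p = 0.205, the lone library assumed to vary like WT). When transcript length and GC content were corrected for, the log2 fold change was -0.66 (adjusted p = 0.0236).

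Tfb2m, the partner of the polymerase at the promoter, had 1278, 1284, 1459 and 1269 normalized counts in the WT libraries, in the same order, and 667, 1002, 1168 and 1070 in the DKO libraries. All DKO values were below all WT values, with DKO replicate 1 well under the others. The log2 fold change was -0.44 (SE 0.167, 95% interval -0.81 to -0.06) and did not pass the test (edgeR adjusted p = 0.0911, exact permutation p = 0.0286). Tfam, the packaging factor, was at 4288, 4390, 4189 and 4113 in WT and 3810, 4407, 4523 and 4634 in DKO. The groups overlapped, and its interval was narrow, from -0.15 to 0.22 around 0.03 (adjusted p = 0.809). Twnk, the helicase of replication, was at 2731, 2295, 2511 and 2185 in WT and 1945, 2216, 2467 and 1893 in DKO, with a log2 fold change of -0.19 (95% interval -0.45 to 0.07, adjusted p = 0.263). Exons of Twnk share 507 bp, or 12.6% of its exonic length, with Mrpl43 on the other strand.

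Of the complex that stabilises mitochondrial mRNA, Slirp rose and Lrpprc did not pass the test. Slirp, a small RNA-binding protein, had 5607, 4869, 5687 and 5451 normalized counts in the WT libraries and 6399, 7790, 7931 and 7293 in the DKO libraries. Even its lowest DKO library was above its highest WT library. Its mean went from 5403 ± 370 (SD, n = 4) to 7353 ± 693 (SD, n = 4), a 1.36-fold rise (log2 fold change 0.44, SE 0.091, 95% interval 0.24 to 0.65, edgeR adjusted p = 0.0106, exact permutation p = 0.0286). Slirp stayed called when each of the 8 libraries was left out, under each of the 9 other settings tried and with DKO replicate 3 alone (log2 fold change 0.54, adjusted p = 0.0118).

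The count of Slirp has a limit of its own, because 2914 bp (93.9%) of its annotated exonic length are shared with exons of Snw1 on the opposite strand, and the library kit does not mark strand. All 4 of its coding transcripts, 335 to 2701 bp long, overlap Snw1. Snw1, a splicing factor, did not rise, at 10166 and 9639 normalized counts on average (log2 fold change -0.08, adjusted p = 0.462). At the other end, 122 bp are shared with Alkbh1, which starts in the opposite direction and encodes a demethylase of mitochondrial and cytosolic tRNA. Alkbh1, chosen here after its values were seen, had 3049, 3678, 3116 and 3271 normalized counts in the WT libraries and 5022, 4458, 4733 and 4668 in the DKO libraries. It was higher in every DKO library, by a log2 fold change of 0.53 (SE 0.084, adjusted p = 0.00454). The part of shared reads in either gene was not tested.

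Lrpprc, the large partner of Slirp, had 6219, 5716, 5389 and 5867 normalized counts in the WT libraries and 3986, 4945, 4707 and 5196 in the DKO libraries. Its DKO libraries were all below its WT libraries, yet its log2 fold change of -0.30 (SE 0.095, 95% interval -0.51 to -0.09) fell just short of the test (edgeR adjusted p = 0.0505, exact permutation p = 0.0286). It was called lower in 3 of the 9 other settings, DESeq2 among them (adjusted p = 0.0259), and the adjusted p reached 0.246 in the rest. Of the 8 edgeR fits that left out a library, 1 called it, with adjusted p up to 0.141. Within a library, the ratio of Lrpprc to Slirp counts was 1.11, 1.17, 0.948 and 1.08 in WT and 0.623, 0.635, 0.593 and 0.712 in DKO. Every DKO ratio was below every WT ratio, with a difference of -0.75 on the log2 scale (exact two-sided permutation p = 0.0286, Benjamini-Hochberg adjusted p = 0.143 over the 5 ratios tested). Such a ratio does not depend on how libraries are scaled, but it carries the same overlap with Snw1.

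**Figure D2:**
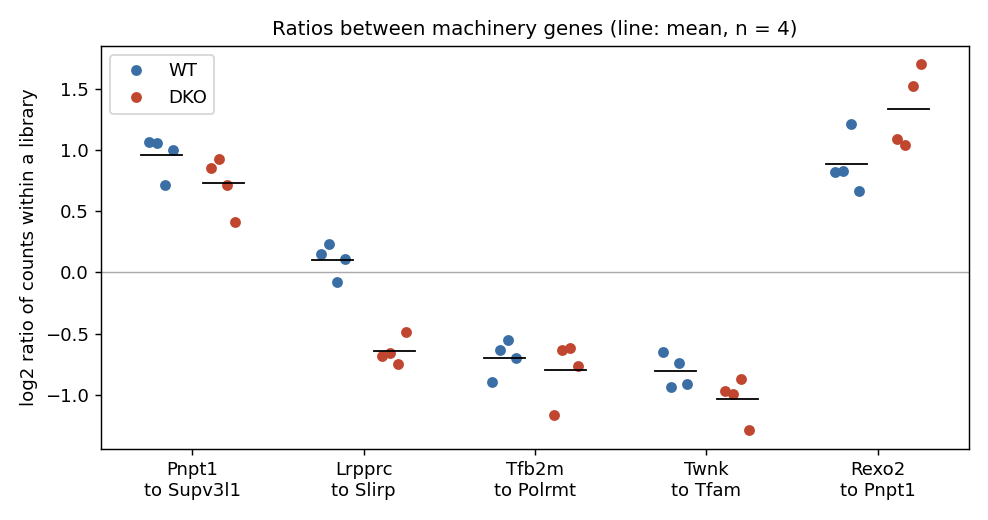
log2 ratio of the counts of 2 genes within each library (y axis) for 5 pairs (x axis), with WT and DKO libraries as points and group means as lines. The Lrpprc to Slirp ratio is 0.10 on average in WT and -0.65 in DKO, without overlap, while the groups of the other 4 pairs overlap.

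The degradosome genes were not called. Pnpt1 had 4119, 3392, 3375 and 3795 normalized counts in the WT libraries and 2939, 3814, 3527 and 2813 in the DKO libraries, with 2 DKO libraries inside the WT range and 2 below it. Its log2 fold change was -0.17 (SE 0.118, 95% interval -0.43 to 0.10, adjusted p = 0.350). Pnpt1 is known as an interferon-inducible gene in human cells. Of 10 interferon-stimulated genes listed with earlier results of these data in view, 8 were called higher. The median of their log2 fold changes was 3.06 and the lowest was 0.92. Because these genes were listed that way, their values are no measure for Pnpt1. Whether Pnpt1 responded to interferon was not tested. Supv3l1 had 1962, 1627, 2060 and 1896 in WT and 1627, 2004, 2144 and 2116 in DKO, with a log2 fold change of 0.06 (95% interval -0.20 to 0.33, adjusted p = 0.738). The ratio of Pnpt1 to Supv3l1 was 1.64 to 2.10 in WT and 1.33 to 1.90 in DKO and overlapped (log2 difference -0.23, exact permutation p = 0.171, adjusted p = 0.214).

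Rexo2, the oligonucleotide nuclease, was at 7291, 6021, 7826 and 6035 normalized counts in the WT libraries and at 6262, 7852, 10139.5 and 9150 in the DKO libraries. DKO replicate 1 was inside the WT range and the other 3 DKO libraries were above it. The log2 fold change of 0.30 (95% interval -0.04 to 0.64) did not pass (edgeR adjusted p = 0.192). Of the 8 fits that left out a library, 1 called it, without DKO replicate 1 (0.41, adjusted p = 0.0371). In these fits its adjusted p reached 0.39. It passed in 0 of the 9 other settings. With DKO replicate 3 alone, its highest library, the log2 fold change was 0.56. Elac2, the tRNA 3′ nuclease, was at 3722, 2919, 3461 and 3318 in WT and 2595, 3281, 3495 and 3159 in DKO, with a log2 fold change of -0.10 (95% interval -0.35 to 0.15, adjusted p = 0.570) that turned to 0.0085 under upper-quartile scaling. The ratio of Rexo2 to Pnpt1 was 1.59 to 2.32 in WT and 2.06 to 3.25 in DKO (log2 difference 0.46, exact permutation p = 0.0857, adjusted p = 0.19). The ratios of Twnk to Tfam and of Tfb2m to Polrmt overlapped as well, with log2 differences of -0.22 (exact permutation p = 0.114) and -0.10 (exact permutation p = 0.6), the latter 0.025 without DKO replicate 1.

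**Figure D3:**
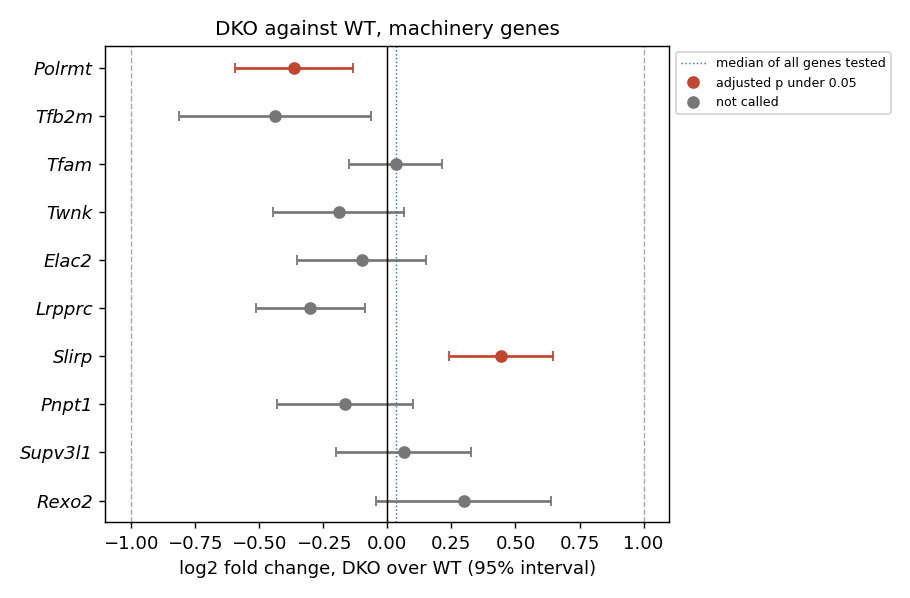
log2 fold change of DKO over WT (x axis, with 95% interval) for the 10 genes, called genes in red, the dotted line at the median of all genes tested and dashed lines at 1 and -1. Only the intervals of Polrmt, Tfb2m and Lrpprc lie wholly below 0 and only that of Slirp wholly above it, and none reaches the dashed lines.

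Levels were compared per kilobase of the principal annotated transcript. In WT, Rexo2 was highest, at 6307.5 ± 845 (SD, n = 4) normalized counts per kilobase, followed by Slirp at 2000.4 ± 137, Pnpt1 at 1356 ± 132, Lrpprc at 1320 ± 78.4 and Elac2 at 1211 ± 121. Tfam was at 1019 ± 28.9, Supv3l1 at 724 ± 71.1, Twnk at 697 ± 69.4, Polrmt at 572 ± 45.2 and Tfb2m at 540 ± 37.3. The WT ranges of neighbours in this order overlapped from Pnpt1 down to Tfam and again from Supv3l1 down to Tfb2m. Rexo2, Slirp and these 2 runs of genes did not overlap with each other. Within the runs, Pnpt1 and Lrpprc lay wholly above Tfam, and Supv3l1 and Twnk lay wholly above Tfb2m. In DKO the order was the same except that Elac2 (1131) stood above Lrpprc (1072). These levels depend on the length used, and the coding transcripts of Slirp alone run from 335 to 2701 bp. Per kilobase of all annotated exons, Rexo2 was at 2007 in WT, Slirp at 1741 and Lrpprc at 682, now in place 6, and Polrmt was lowest at 458.

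The length of the principal transcript moved with the fold change over all genes. The median log2 fold change was 0.32 for 2211 genes with a principal transcript of up to 1 kb, of which 18.8% were called higher and 1.85% lower, but -0.06 for the 2 to 4 kb class. By the shortest coding transcript of each gene, the median of the class up to 1 kb was 0.06, with 12.4% called higher and 10.9% lower. Rexo2, with the shortest principal transcript of the 10 (1077 bp), was the second highest of them after Slirp. After correction for length and GC content by loess, Rexo2 went to 0.11 (adjusted p = 0.670), Lrpprc to -0.24 (adjusted p = 0.246) and Tfb2m to -0.36 (adjusted p = 0.235), and Slirp to 0.52 (adjusted p = 0.0238). With the shortest coding transcript of each gene in that correction, Slirp was at 0.43 (adjusted p = 0.0303) and Polrmt at -0.81 (adjusted p = 0.00624). Both called genes thus kept their direction and call.

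**Figure D4:**
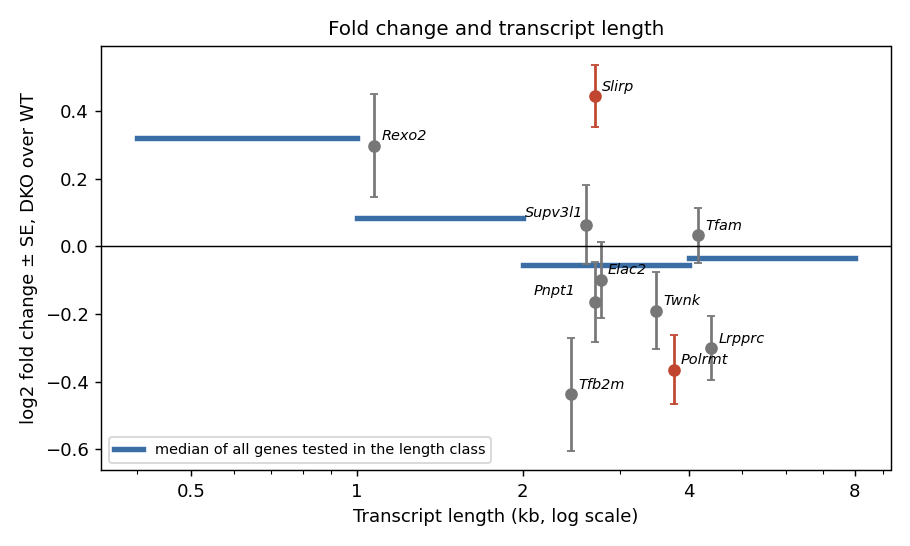
log2 fold change with SE (y axis) of the 10 genes against the length of their principal transcript in kb (x axis, log scale), called genes in red, and the median of all genes tested in each of 4 length classes in blue. Slirp, placed by its principal transcript of 2701 bp, lies well above the median of its class, and Polrmt and Tfb2m lie below theirs. The median is highest, at 0.32, for transcripts of up to 1 kb, a length that the shortest coding transcript of Slirp (335 bp) also has.

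Around these 10 genes, 67 partner genes of mtDNA expression and maintenance were followed, all of them tested. Of these, 4 were called higher and 14 lower, that is 5.97% and 20.9%, beside 10.7% and 10.8% of all genes, and their median log2 fold change was -0.19. The 4 became 1 without WT replicate 1, 2 or 4 or DKO replicate 2 and 2 without DKO replicate 3, and the 14 became 9 without WT replicate 1 or 4. After the correction for transcript length and GC content, 2 partners were higher and 8 lower, where 1189 and 1641 of the 17378 genes were called. With the shortest coding transcripts in that correction, 1 partner was higher and 13 lower, where 1255 and 2105 of the 17378 genes were called. Lig3, the mitochondrial DNA ligase, fell from 3577 to 1736 normalized counts (log2 fold change -1.04, adjusted p = 0.00531), and Prorp, the nuclease that cuts tRNA 5′ ends, from 1583 to 975 (-0.70, adjusted p = 0.00531). Dna2, a nuclease and helicase of replication, fell from 3686 to 2296 (-0.68, adjusted p = 0.00947). Those higher were Cdk5rap1, a tRNA-modifying enzyme (1.53, adjusted p = 0.00925), Grsf1, an RNA granule protein (0.37, adjusted p = 0.0311), Esrra (0.62, adjusted p = 0.0430) and Ssbp1, which coats single-stranded mtDNA (0.29, adjusted p = 0.0432). No gene of the transcription list was called out of 8, among them the elongation factor Tefm (-0.13, adjusted p = 0.474).

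By role, 2 of 12 replication genes (16.7%), 5 of 20 RNA processing genes (25%) and 2 of 18 RNA modification genes (11.1%) were lower, beside 10.8% of all genes. In each of these lists 1 gene was higher (8.33%, 5% and 5.56%), beside 10.7% of all genes. The mitochondrial poly(A) polymerase Mtpap (-0.26, adjusted p = 0.192), the RNase P subunit Trmt10c (-0.19, adjusted p = 0.217) and the DNA polymerase Polg (0.08, adjusted p = 0.705) were not called. The nuclear regulators, known to drive transcription of this machinery, had 5 of 9 called lower (55.6%) and 1 higher (11.1%). Myc, a growth regulator, fell from 28612 to 18437 normalized counts (log2 fold change -0.63, adjusted p = 0.00227). Nrf1 fell from 3641 to 2619 (-0.48, adjusted p = 0.00362), and Pprc1, a coactivator, from 4225 to 2854 (-0.57, adjusted p = 0.00604). Both subunits of the ETS factor searched for above fell too, Gabpa by 0.49 (adjusted p = 0.0157) and Gabpb1 by 0.64 (adjusted p = 0.0135) on the log2 scale. For the coactivator Ppargc1a the log2 fold change was 0.01 (adjusted p = 0.992). Summed over the 9 regulators, the level was 1035 to 1132 CPM in WT and 674 to 791 in DKO, with no overlap. This sum is weighted towards Myc, at 28612 normalized counts in WT beside at most 4225 for any other regulator. By gene, 7 of the 9 log2 fold changes were below 0 and 2 were above. Over the 10 machinery genes the sum did overlap, at 786 to 902 CPM in WT and 723 to 954 in DKO.

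**Figure D5:**
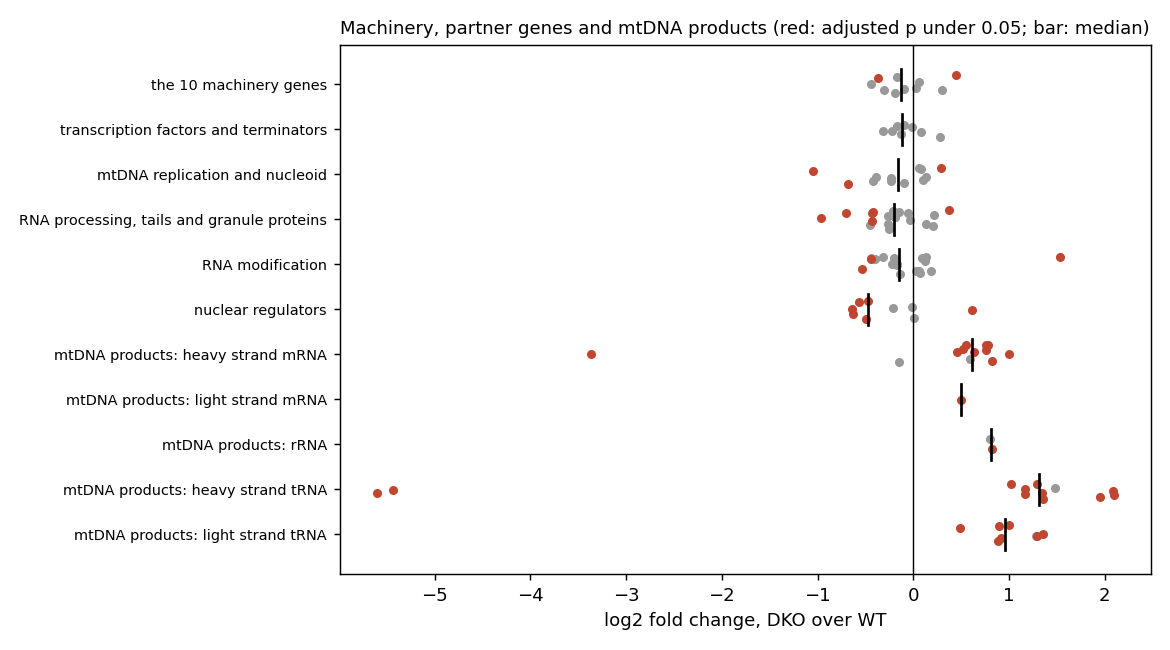
log2 fold change of DKO over WT (x axis) for each tested gene of the machinery, the 5 partner lists and the 5 classes of mtDNA products (y axis), with called genes in red and medians as black bars. The median of the nuclear regulators is at -0.48, and that of heavy-strand mRNAs at 0.61 with mt-Nd3 at -3.36.

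The RNAs made from mtDNA were mostly higher in DKO cells. Of 12 heavy-strand mRNAs, 9 were called higher and 1 lower. Their log2 fold changes had a median of 0.61 and ranged from -3.36 to 0.998, and their sum was 10616 to 11184 CPM in WT and 16081 to 18992 in DKO. The light-strand mRNA mt-Nd6 rose from 18080 to 25516 normalized counts (log2 fold change 0.50, adjusted p = 0.00844). Per 1000 heavy-strand mRNA counts, mt-Nd6 was 35.6, 38.6, 42.5 and 32.8 in WT and 37.9, 33.7, 29.4 and 35.9 in DKO. These groups overlapped (exact two-sided permutation p = 0.343), so a shift between the strands was not detectable here. The RNA was labelled as polyadenylated and strand was not marked, so a read on mt-Nd6 can come from either strand.

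Not all mtDNA genes rose. The heavy-strand mRNA mt-Nd4l was not called (log2 fold change -0.14, edgeR adjusted p = 0.820). A run of 3 neighbours on mtDNA, named after their values were seen, was called lower. The heavy-strand mRNA mt-Nd3 went from 300.4 ± 38.5 to 29.1 ± 7.41 (SD, n = 4 each) normalized counts, and the tRNA genes on either side of it, mt-Tg and mt-Tr, from 32.7 and 28.9 to 0.524 and 0.522 on average. Of the other tRNA genes tested, 9 of the heavy strand and 7 of 8 of the light strand were called higher. Both rRNAs had fold changes above 0, and mt-Rnr2, likewise named afterwards, was called (0.83, adjusted p = 0.00749). Among RNAs that lack poly(A) tails, 9 of 10 replication-dependent histone genes were also called upwards in DKO (median log2 fold change 1.51), and what part this has in the mitochondrial values was not tested. Some mtDNA genes have near-identical nuclear copies, and reads mapped with low quality had been removed, so counts of single mtDNA genes are uncertain.

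Genes whose pattern over the 8 libraries was most like that of a machinery gene were found by the root mean square difference of log2 CPM, each gene centred on its own mean. For Pnpt1 they were Fam120a (0.037), Vps36 (0.044) and Gm38056 (0.059). For Tfam they included Alkbh3 (0.035) and Mrps9 (0.038), a mitochondrial ribosomal protein gene. For Lrpprc they included Ddx19a (0.043) and Usp15 (0.044).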

How the data were processed

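S0 cells sorted from fetal livers of 4 WT and 4 DKO embryo samples were sequenced as read pairs, from RNA labelled as polyadenylated that was amplified by template switching. The authors trimmed reads with fastp 0.21.0, mapped them to mm10 with HISAT2 2.2.1, dropped alignments of mapping quality under 20, and deposited raw gene counts made with StringTie 1.3.3b and prepDE, which works counts back from coverage. The strand setting is not given in the sources used here. Gene symbols came from GENCODE M21 (GRCm38), which matched 52489 of 52636 identifiers without their version.

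Counts were tested with edgeR 4.0.16 (R 4.3.3), using filterByExpr, TMM scaling, a robust quasi-likelihood fit without covariates and Benjamini-Hochberg adjustment over 17378 genes. A gene was called at an adjusted p under 0.05. Level per kilobase used the longest principal transcript. Log2 CPM used a prior count of 2. Single genes and ratios of counts within a library were also tested by exact permutation over 70 arrangements. DESeq2 1.42.0, other scalings and filters, protein-coding genes alone, a replicate block and leaving out each library were alternatives. The corrections for length and GC content (loess, span 0.5) and DKO replicate 3 alone against WT were chosen after seeing the data. The fit was tested on simulated data.

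The members and all gene lists were chosen with earlier results of these data known. Named were all 10 members, up to 6 partner genes with the smallest p in each direction, of which only 4 were called higher, 6 fixed partners, both GABP subunits for their motif, mt-Nd6 and the range of the heavy-strand mRNAs, and the 3 genes most like Pnpt1, Tfam and Lrpprc, of which 2 are not reported here. Pairs of libraries in a group differed by a chi-square of at least 18.5 per gene, far above sampling noise, so no library was counted as a repeat. No batch is given in the labels.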

Additional observations from a re-analysis of the deposited data

Results flagged for a closer look

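Among 20 groups of 4 libraries (each of the 10 genes in either genotype), 1 had a library far from the others. Tfb2m in WT replicate 3 stood at 1459 normalized counts, above the other 3 WT libraries at 1269 to 1284. Its gap to the next library was 0.918 of the range of the group on the log2 CPM scale, over the limit of Dixon's test for 4 values. Chance alone flags about 1 in 20 such groups. Without WT replicate 3, the DKO libraries of Tfb2m were still all below the WT libraries.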

How the results depend on the processing

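The number of machinery genes lower in DKO (1) was 2 with DESeq2, with library sizes without TMM and with a minimum of 10 counts in every library, and 0 with upper-quartile scaling, with the replicate block and with DKO replicate 3 alone, over a range of 0 to 2 when single libraries were left out (0 without any WT replicate or DKO replicate 1 or 2, and 2 without DKO replicate 4). The number higher (1) was 2 with DKO replicate 3 alone and 1 to 2 without single libraries (2 without DKO replicate 1). The 4 partner genes higher became 1 without a low-count filter, 1 with the replicate block, 2 with the correction for length and GC content and 1 with that for shortest coding length and GC content, and 1 to 5 without single libraries (under 3 without WT replicates 1, 2 or 4 or DKO replicates 2 or 3). The 14 partner genes lower became 7 with the replicate block, 8 with the correction for length and GC content, 7 with DKO replicate 3 alone, and 9 to 15 without single libraries (9 without WT replicate 1 or 4). Elac2 turned to 0.0085 under upper-quartile scaling and 0.041 with DKO replicate 3 alone, where Twnk turned to 0.0030. The log2 ratio of Tfb2m to Polrmt ranged from -0.17 to 0.025 without single libraries. The cause of these changes was not tested. Calls over all genes changed with the setting too. In the main fit 1878 of 17378 genes were lower, beside 2387 with DESeq2 and 2022 with library sizes without TMM. With upper-quartile scaling 1242 were lower, and with the replicate block 1083. With at least 10 counts in every library, 1845 of 14138 genes were lower. Upper-quartile scaling moved the median of all genes to 0.14 and the share of called genes that were higher from 49.9% to 66.7%, and leaving out the low-count filter moved that median to 0.13.

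Libraries with the same replicate number did not deviate together (correlations of -0.10, 0.053, -0.028 and -0.0072), so the numbers do not pair them. In the fit with the replicate block Polrmt had a log2 fold change of -0.37 (adjusted p = 0.0888) and Slirp 0.44 (adjusted p = 0.0428). In the library with the lowest total, 36981439 counts, and in all others every machinery gene had 635 counts or more.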
